A study of Daphnia magna with 12 samples.

Results

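The spread of gene expression among replicate libraries was compared between 3 groups of Daphnia magna females. For each gene the spread was the standard deviation (SD) of log2 CPM, where CPM is a count per 1000000 reads after scaling of library size, over the 4 libraries of a group. Genes were taken where the mean over all 12 libraries was at least 5 CPM, which 6499 of 21456 gene models met (30.3%). The last gene inside this limit averaged 5.001 CPM and the first one outside it 4.999 CPM. A few high libraries can carry a gene over this limit, so it is not independent of spread. The mean was at least 5 CPM in every group for 5857 of the genes and under it in some group for 642.

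The old non-reproducing females were 130 to 170 days old and had stopped reproducing, and the old reproducing females were in the same age range and still reproducing. Young females were 20 days old and reproducing. All animals came from 1 clone, GB-EL75-69, and were housed singly at 20 degrees C in 20 mL of medium. All received 100000 food cells per mL per day and no treatment. RNA came from material labelled whole body and somatic, and each group had 4 libraries.

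Daphnia magna is a small freshwater crustacean of ponds, and its females can reproduce clonally, so that sisters share a genome. Adult females moult repeatedly through life, and in reproducing animals a moult goes with the release of a brood and the laying of the next clutch. In animals of 1 clone the differences between replicates do not come from segregating alleles, but age, condition, moult stage, handling and library preparation can all differ between them. These sources cannot be told apart in an SD over 4 libraries.

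Library totals ranged from 16015869 to 25659597 counts, and the 6499 genes held 98.5% to 99.4% of each total. None of the 18 pairs of replicates agreed within sampling noise, the lowest chi-square per degree of freedom being 83.4, so every library was counted as a separate sample. The labels do not give the number of animals in a library, so the p-values measure the spread between these libraries only. They number the libraries in 1 block per group without saying what the numbers stand for, so whatever goes with the number and the group cannot be told apart. In whole-body RNA, fewer cells of a type and less RNA per cell cannot be told apart either. The gene models carry annotation IDs that the files do not pair with names, so no function is given for any of them.

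The old reproducing group was the most uniform of the 3 by the typical gene. Its median SD was 0.22 log2 units, against 0.27 in old non-reproducing and 0.27 in young libraries. This order rested on single libraries, since without young replicate 1 the median SD was 0.217 in old reproducing and 0.207 in young libraries, and without old non-reproducing replicate 2 it was 0.223 in old non-reproducing libraries. The middle 50% of genes lay between 0.16 and 0.54 in old non-reproducing, 0.14 and 0.35 in old reproducing, and 0.17 and 0.53 in young libraries. Of the 3 groups, the old non-reproducing one had the widest values of 39.8% of genes, the old reproducing one of 18.1% and the young one of 42.1%. The narrowest values were in old reproducing libraries for 3110 genes (47.9%), in old non-reproducing libraries for 1678 and in young libraries for 1711.

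The upper end of the distribution separated the 2 wider groups from each other. An SD above 1 log2 unit was found for 734 genes (11.3%) in old non-reproducing, 378 (5.82%) in old reproducing and 789 (12.1%) in young libraries. Above 2 log2 units the counts were 296 genes (4.55%) in old non-reproducing, 81 (1.25%) in old reproducing and 163 (2.51%) in young libraries. Old non-reproducing and young libraries thus had about as many genes beyond 1 log2 unit, while beyond 2 log2 units the old non-reproducing group had the most. The limit on abundance bears on this order. The commonest pattern among the widest old non-reproducing genes held 187 genes, with a median SD of 2.39 there. Of these, 187 averaged at least 5 CPM in old non-reproducing, 99 in old reproducing and 87 in young libraries. The order was not tested over the 5857 genes at 5 CPM or more in every group. These are counts over genes that share the same 4 libraries, and the differences between them were not tested.

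**Figure D1:**
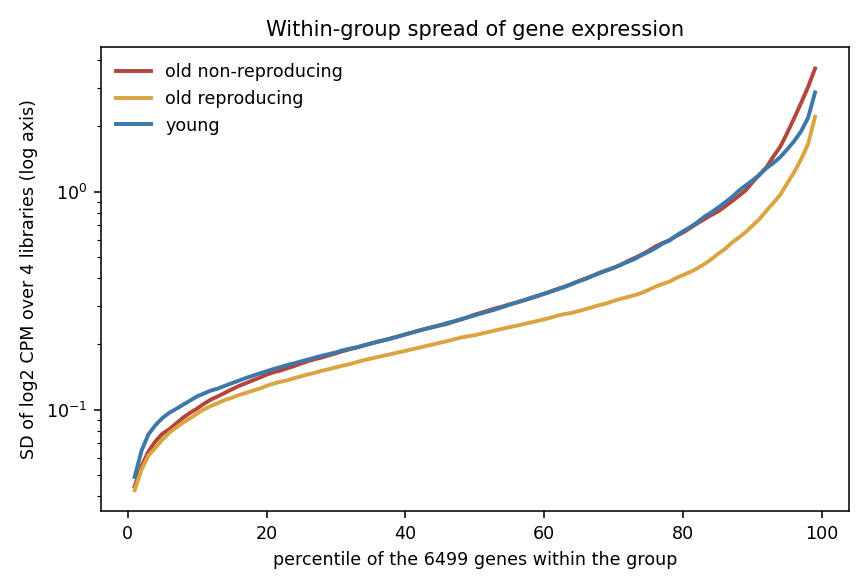
SD of log2 CPM over the 4 libraries of a group (vertical, log axis) at each percentile of the 6499 genes (horizontal), with 1 line per group. The old reproducing line lies below the other 2 from the lower percentiles up to the top, with medians of 0.27 in old non-reproducing, 0.22 in old reproducing and 0.27 in young libraries, and the old non-reproducing line is highest at the top end.

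For the typical gene, counting error was a small part of these SDs. For genes with the smallest SDs it can exceed the SD itself, as in the gene called below. The SD that the read numbers alone would give had a median of 0.05 in old non-reproducing, 0.05 in old reproducing and 0.06 in young libraries. The order of the groups was also seen in a count model that takes counting error out: the common biological coefficient of variation estimated by edgeR was 0.486 in old non-reproducing, 0.326 in old reproducing and 0.460 in young libraries.

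Spread varied with abundance, and the old reproducing group had the lowest median in each of 5 abundance classes. Among the 1077 genes at 5 to 10 CPM the median SD was 0.37 in old non-reproducing, 0.32 in old reproducing and 0.41 in young libraries. It was smallest among the 2017 genes at 30 to 100 CPM, at 0.21 in old non-reproducing, 0.19 in old reproducing and 0.22 in young libraries. Among the 516 genes above 300 CPM it was larger again, at 0.40 in old non-reproducing, 0.26 in old reproducing and 0.37 in young libraries, although counting error is lowest there, at 0.014 to 0.015 log2 units. The most abundant transcripts thus differed more between replicates than those of 10 to 300 CPM in every group.

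The distance of each library from its group was taken as the median over genes of its absolute deviation from the group mean, scaled up for the number of libraries behind that mean, which gives 1 value per library. In old non-reproducing libraries it was 0.185, 0.259, 0.229 and 0.180 log2 units in replicates 1 to 4. In old reproducing libraries it was 0.146, 0.141, 0.164 and 0.252, and in young libraries 0.283, 0.231, 0.178 and 0.176. The groups overlapped, and old reproducing replicate 4 lay within the range of the old non-reproducing libraries while replicates 1 to 3 of its group lay below every library of the other groups.

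**Figure D2:**
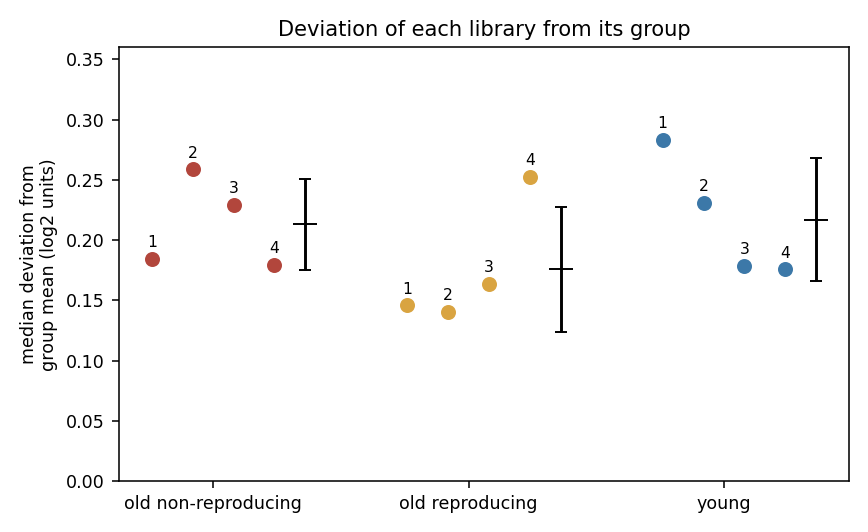
Median over 6499 genes of the absolute deviation of a library from its group mean in log2 units (vertical), by group (horizontal); points are single libraries labelled with their replicate number, and the bar beside them is the mean ± SD of 4 libraries. Old reproducing replicate 4, at 0.252, stands above replicates 1 to 3 of its group, which lie between 0.141 and 0.164.

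Comparing libraries rather than genes, no pair of groups differed by more than the spread between libraries. The deviation averaged 0.213 ± 0.038 in old non-reproducing and 0.176 ± 0.052 in old reproducing libraries (SD, n = 4 each), a difference of 0.037 with a two-sided exact permutation p = 0.257 and 0.386 after adjustment over the 3 pairs. Against the young mean of 0.217 ± 0.051 the old non-reproducing mean differed by -0.004 (exact permutation p = 0.943, adjusted p = 0.943). The old reproducing mean differed from the young one by -0.041 (exact permutation p = 0.257, adjusted p = 0.386). With 70 arrangements the smallest p is 0.0286, and p is approximate because libraries of a group share the mean they deviate from.

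Single libraries moved these differences in both directions. Without old non-reproducing replicate 2 the old non-reproducing mean differed from the old reproducing one by 0.013, and without old reproducing replicate 4 by 0.083. Without young replicate 1 the old reproducing mean differed from the young one by -0.010, and without old reproducing replicate 4 by -0.087. Each of these libraries was the farthest of its group, so the direction of its omission was given beforehand. Over the 12 omissions the unadjusted exact permutation p ranged from 0.0286 to 0.657 for old non-reproducing against old reproducing and from 0.0857 to 0.743 for old reproducing against young, with the lower value in each case without old reproducing replicate 4.

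By the median absolute deviation, the library that lay farthest from its group was in each group the one with the fewest reads. By the share of squared deviations this did not hold in the old non-reproducing group. There replicate 1 held the most, 43.4%, and had the most reads of its group. Replicate 2 of the old non-reproducing group had 17539749 counts, against 21535753 to 23324131 in its other libraries. Old reproducing replicate 4 had 16015869 counts against 18476780 to 25260519, and young replicate 1 had 16921813 against 17754334 to 25659597. After all libraries were thinned to the smallest total, the 3 values were 0.257 in old non-reproducing replicate 2, 0.256 in old reproducing replicate 4 and 0.283 in young replicate 1. These libraries were the smallest of their groups, so thinning altered them little, and the part of read depth in their distances was not tested.

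Gene by gene, the SD in old non-reproducing libraries was typically 1.28 times that in old reproducing libraries, a median log2 ratio of 0.36. It was wider in old non-reproducing libraries for 4227 genes (65.04%). At least 2 times as large an SD was found for 1664 genes in the old non-reproducing group (25.6%) and for 610 in the old reproducing group (9.39%). All genes with enough reads are members here, so these shares are themselves the background. The excess rested in part on replicate 2 of the old non-reproducing group, without which the median log2 ratio was 0.07, while without old reproducing replicate 4 it was 0.81.

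Between old non-reproducing and young libraries neither group was wider in general. The median log2 ratio of SDs was -0.02, and 48.9% of genes were wider in old non-reproducing libraries. SDs at least 2 times as large were about as frequent in both directions, with 1062 genes wider in old non-reproducing (16.3%) and 1140 wider in young libraries (17.5%). The balance turned with single libraries, the median log2 ratio being 0.34 without young replicate 1 and -0.35 without old non-reproducing replicate 2.

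Old reproducing libraries were narrower than young ones, with a median log2 SD ratio of -0.39, or 0.765 times the young SD. Only 35.3% of genes were wider in old reproducing libraries. At least 2 times as large an SD was found for 596 genes in old reproducing (9.17%) and 1797 in young libraries (27.7%). Leaving out young replicate 1 brought the median log2 ratio to -0.02, and leaving out old reproducing replicate 4 brought it to -0.92.

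The ratio of SDs was nearly unrelated to the difference of means. Across genes, which are not replicates, Spearman's rho between the log2 SD ratio and the log2 difference of group means was 0.07 for old non-reproducing against old reproducing, 0.10 for old non-reproducing against young and -0.04 for old reproducing against young.

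Single genes were tested with limma on the deviations of the 12 libraries, two-sided, with Benjamini-Hochberg adjustment over the 6499 genes. At an adjusted p of 0.05, 1 gene (0.0154%) was wider in old non-reproducing than in old reproducing libraries and 0 were narrower. The same gene was the only one called for old non-reproducing against young, again 0.0154% of genes and again wider in old non-reproducing libraries. For old reproducing against young 0 genes (0%) were called by limma. The edgeR ratio of dispersions called 0 genes in all 3 comparisons.

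The default settings of limma, without the variance trend and the correlation of deviations that were added to the planned fit after a test on simulated data, called other genes, none of them the one above. For old non-reproducing against old reproducing there were 10 wider in old non-reproducing (0.154%) and 1 wider in old reproducing libraries (0.0154%). For old non-reproducing against young there were 19 wider in old non-reproducing (0.292%) and 27 wider in young libraries (0.415%), and for old reproducing against young 0 were wider in old reproducing (0%) and 4 in young libraries (0.0615%).

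Counts at an unadjusted p of 0.05 carried the direction of the ratios above. For old non-reproducing against old reproducing there were 327 genes wider in old non-reproducing (5.03%) and 66 wider in old reproducing libraries (1.02%). For old non-reproducing against young there were 290 (4.46%) wider in old non-reproducing and 317 (4.88%) wider in young libraries. For old reproducing against young there were 48 (0.739%) wider in old reproducing and 379 (5.83%) wider in young libraries. The edgeR dispersion ratio had 594, 571 and 649 genes at an unadjusted p of 0.05 in these 3 comparisons. With both directions together limma gave 393, 607 and 427 genes, where 5% of 6499 genes is 325.

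The called gene was maker-000038F-snap-gene-3.79. It had 6.23, 22.6, 54.2 and 28.3 CPM in old non-reproducing replicates 1 to 4. Old reproducing replicates had 7.07, 6.98, 6.85 and 7.07 CPM, and young replicates had 7.16, 7.97, 7.57 and 7.70 CPM. Replicates 2, 3 and 4 of the old non-reproducing group thus lay above all libraries of the other groups, while its replicate 1 lay just below them, and the other 2 groups were tight. Its SD was 1.30 in old non-reproducing, 0.02 in old reproducing and 0.06 in young libraries. Among genes averaging 5 to 10 CPM, near its level there, counting error had a median of 0.12 in old reproducing and 0.14 in young libraries. The SDs of this gene in these groups, from 125 to 176 and 106 to 212 counts, were thus below counting error. Such closeness cannot be read as uniform expression. The mean deviation was larger by 1.01 log2 units (SE 0.22) than in old reproducing libraries (limma adjusted p = 0.0241) and by 0.97 (SE 0.22) than in young libraries (limma adjusted p = 0.0495). Both comparisons share the old non-reproducing libraries and are not independent. The call against young libraries ended without old non-reproducing replicate 1 (limma adjusted p = 0.0677). Both calls ended without any 1 of the old reproducing or young libraries (limma adjusted p of 0.128 to 0.741), with deviations from the group median (limma adjusted p = 0.996 and 0.704), and under the other scalings of library size.

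maker-000014F-snap-gene-11.57 was second among genes wider in old non-reproducing than in old reproducing libraries. It stood at 25.1, 649, 17.6 and 27.9 CPM in old non-reproducing replicates 1 to 4. Old reproducing libraries held 21.5 to 24.8 CPM and young libraries 19.5 to 25.8 CPM. Old non-reproducing replicate 2, with 12227 counts, stood far above all others, replicate 3 was the lowest of the 12 libraries, and the SDs were 2.42 in old non-reproducing, 0.09 in old reproducing and 0.19 in young libraries. The difference of 2.00 (SE 0.48) against old reproducing libraries missed the threshold (limma adjusted p = 0.0764), and without replicate 2 it was 0.24.

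In the other direction, maker-000001F-snap-gene-21.30 led the genes wider in old reproducing libraries. Old non-reproducing replicates 1 to 4 had 37.4, 34.5, 38.8 and 32.5 CPM, and old reproducing replicates had 47.8, 31.6, 32.2 and 3.96 CPM. The low value of old reproducing replicate 4, from 70 counts, made up the spread, and the young libraries were higher than both old groups except for 1 overlap, at 46.9 to 96.9 CPM. The SDs were 0.12 in old non-reproducing, 1.61 in old reproducing and 0.47 in young libraries, and the difference of -1.27 (SE 0.37) did not pass (limma adjusted p = 0.238).

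The second gene in that direction, maker-000001F-augustus-gene-4.40, had a small but even spread. It had 33.7 to 36.5 CPM in old non-reproducing libraries and 27.04, 30.2, 38.3 and 40.5 CPM in old reproducing replicates 1 to 4. Young libraries held 32.3 to 35.8 CPM. The old reproducing libraries lay on both sides of the other groups, 2 below and 2 above, with an SD of 0.28 against 0.05 in old non-reproducing libraries (limma adjusted p = 0.385).

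Ranks 3 to 10 of that comparison had SDs of 0.94 to 4.59 in the wider group where old non-reproducing libraries were wider, with 0.00 to 0.14 in old reproducing libraries. The SDs of 4.59 and 0.00 belong to rank 10, which had 0 counts in every old reproducing library. It passed the abundance limit through old non-reproducing replicates 3 and 4 (118 and 75.4 CPM), so its SD of 0.00 is not a narrow spread. Where old reproducing libraries were wider, the SDs were 0.20 to 0.41 there and 0.01 to 0.05 in old non-reproducing libraries. The genes that led in the old non-reproducing group thus had larger SDs in their wider group, and none of these 16 passed the threshold (limma adjusted p of 0.0764 to 0.488).

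**Figure D3:**
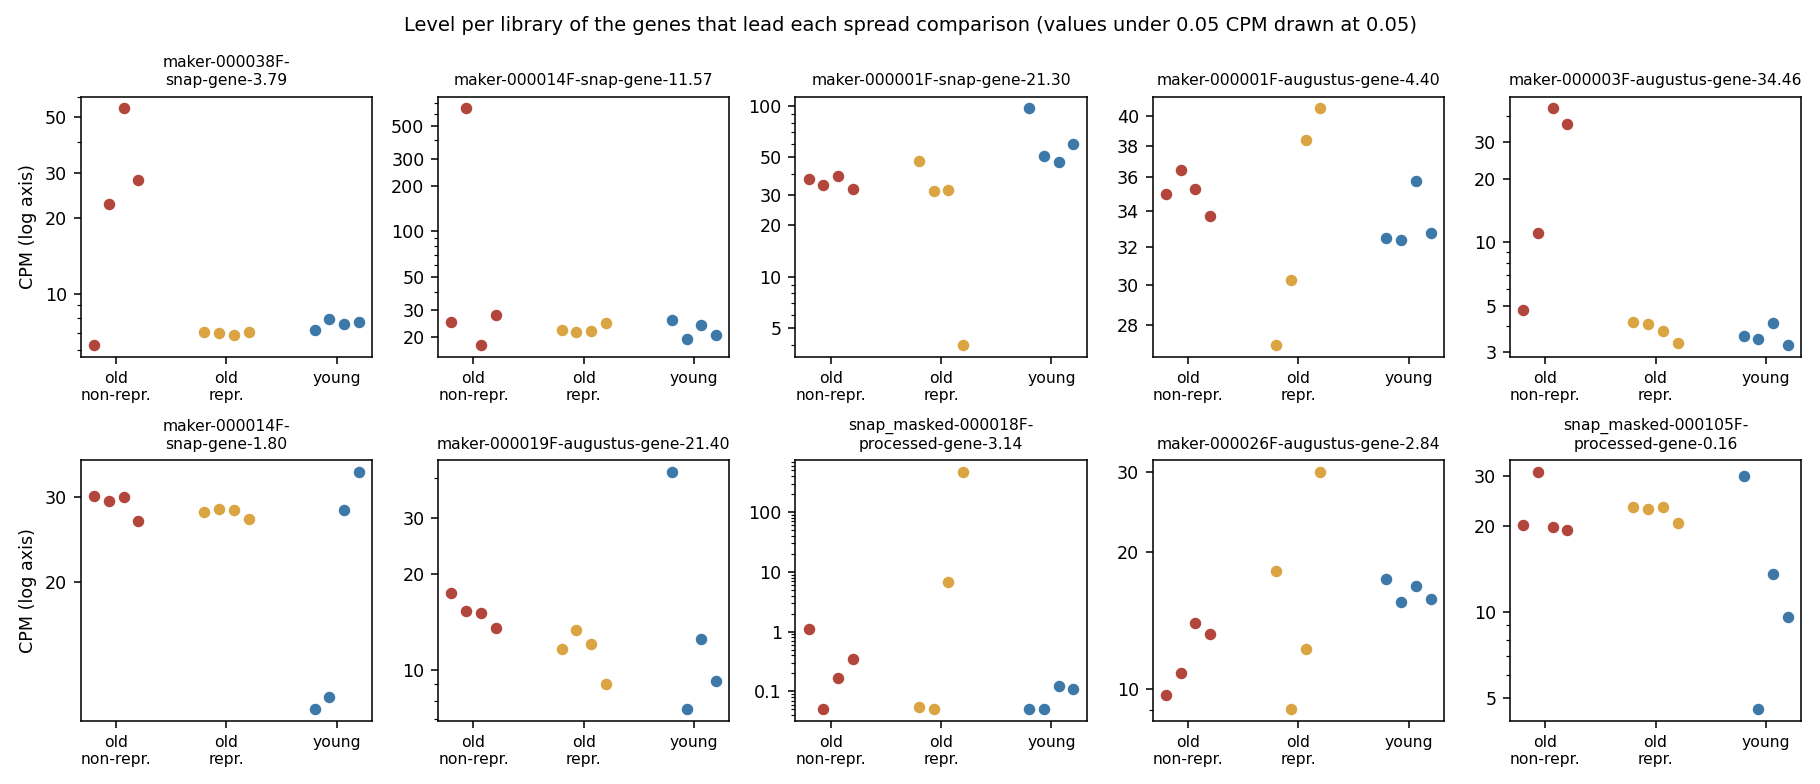
CPM (vertical, log axis, a scale of its own in each panel) in each of the 12 libraries for the 10 genes named by rank, grouped as old non-reproducing, old reproducing and young from left to right, with replicates 1 to 4 in order within a group. In maker-000038F-snap-gene-3.79 old non-reproducing libraries span 6.23 to 54.2 CPM and the others 6.85 to 7.97 CPM.

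Against young libraries, maker-000003F-augustus-gene-34.46 followed the called gene among those wider in old non-reproducing libraries. It had 4.75, 11.1, 43.4 and 36.6 CPM in old non-reproducing replicates 1 to 4, 3.34 to 4.17 CPM in old reproducing libraries and 3.23 to 4.15 CPM in young libraries. All 4 old non-reproducing libraries lay above all others, by little in replicate 1 and by much in replicates 3 and 4. The gene averaged 23.9 CPM in old non-reproducing, 3.84 CPM in old reproducing and 3.61 CPM in young libraries. It thus passed the limits of 5 and 10 CPM only through the group in which it was wide. The SD was 1.495 in old non-reproducing against 0.15 in young libraries, and the difference of 1.29 (SE 0.32) was not called (limma adjusted p = 0.0991).

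maker-000014F-snap-gene-1.80 was the leading gene that was wider in young libraries, and it led against both old groups. Young replicates 1 to 4 had 10.9, 11.6, 28.2 and 33.7 CPM. The 4 old non-reproducing libraries had 26.8 to 30.1 CPM and the 4 old reproducing ones 26.9 to 28.3 CPM. Young replicate 3 was thus within the range of the old libraries and replicate 4 above it, while replicates 1 and 2 were below all old libraries. Its SD was 0.08 in old non-reproducing, 0.03 in old reproducing and 0.84 in young libraries. The difference was -0.77 (SE 0.19) for old non-reproducing against young and -0.81 (SE 0.19) for old reproducing against young (limma adjusted p = 0.0991 and 0.172), and with the default settings of limma the adjusted p was 0.000793 and 0.000622.

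maker-000019F-augustus-gene-21.40 was the second gene wider in young than in old non-reproducing libraries. Old non-reproducing libraries had 13.5 to 17.4 CPM, old reproducing libraries 8.99 to 13.4 CPM, and young replicates 41.7, 7.503, 12.5 and 9.19 CPM. Young replicate 1 was above all other libraries, and young replicate 2 was the lowest of the 12. The SD was 0.15 in old non-reproducing against 1.10 in young libraries (limma adjusted p = 0.200).

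Ranks 3 to 10 of this comparison had SDs of 0.94 to 4.48 in old non-reproducing and 0.00 to 0.26 in young libraries where the old non-reproducing group was wider. The SDs of 4.48 and 0.00 belong to rank 9, which had 0 counts in every young library, so its SD there is not a narrow spread. Where the young group was wider, the SDs were 0.02 to 0.21 in old non-reproducing and 0.32 to 1.12 in young libraries. None of them passed (limma adjusted p of 0.0991 to 0.288). In 4 of the 8 genes wider in young libraries the largest gap split the young group 2 against 2, and in 1 of the 8 wider in old non-reproducing libraries it split that group so. For old non-reproducing against old reproducing such splits were found in 5 of 8 and 1 of 8 genes, by wider group in that order. For old reproducing against young they were found in 2 of 8 and 3 of 8. These are few genes, and the share over all genes was not taken.

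The largest SD of any gene in the old reproducing group, 5.69, was that of snap_masked-000018F-processed-gene-3.14, which also led the genes wider in old reproducing than in young libraries. Reads were concentrated in 1 library, with 8193 counts (463 CPM) in old reproducing replicate 4 and 173 counts (6.81 CPM) in replicate 3. Replicates 1 and 2 of that group had 1 and 0 counts, the old non-reproducing libraries had 27, 0, 3 and 8 counts, and the young libraries had 0, 0, 2 and 3 counts. The difference from young libraries was 4.46 (SE 1.47) and was not called (limma adjusted p = 0.681). Every young library was at or under the floor of 3 counts, so its SD there has little meaning. The gene averaged 118 CPM in old reproducing, 0.41 CPM in old non-reproducing and 0.06 CPM in young libraries. It thus passed the limits on abundance only through the group in which it was wide.

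The second gene of that direction, maker-000026F-augustus-gene-2.84, had 18.2, 9.04, 12.2 and 29.9 CPM in old reproducing replicates 1 to 4. Young libraries held 15.5 to 17.5 CPM, inside the old reproducing range, and old non-reproducing libraries held 9.70 to 14.0 CPM. The SD was 0.74 in old reproducing against 0.08 in young libraries (limma adjusted p = 0.681). In the other direction, snap_masked-000105F-processed-gene-0.16 had 20.5 to 23.3 CPM in old reproducing libraries and 30.04, 4.55, 13.6 and 9.62 CPM in young replicates 1 to 4. Its young libraries lay on both sides of the old reproducing ones, with an SD of 0.09 in old reproducing against 1.12 in young libraries (limma adjusted p = 0.681). Ranks 3 to 10 had SDs of 0.19 to 1.61 in old reproducing and 0.03 to 0.47 in young libraries where the old reproducing group was wider. Where the young group was wider, the SDs were 0.03 to 0.25 in old reproducing and 0.21 to 2.47 in young libraries.

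The libraries contributed unequally to the spread of their group. In the old non-reproducing group, replicates 1 to 4 held 43.4%, 24.9%, 20.4% and 11.3% of the sum of squared deviations over genes. In the old reproducing group they held 11.5%, 26.8%, 12.02% and 49.7%, and in the young group 41.9%, 17.9%, 14.4% and 25.8%. An even share is 25%, so replicate 1 of the old non-reproducing and young groups and replicate 4 of the old reproducing group carried the most.

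Counting genes instead of squares gave another order in the old non-reproducing group. Replicate 2 was the farthest from the group mean for 36.1% of genes, replicate 3 for 27.7% and replicate 1 for 22.7%. Old non-reproducing replicate 1 therefore differed by much in fewer genes, and replicate 2 by less in more genes. Old reproducing replicate 4 was farthest for 50.1% of genes and young replicate 1 for 38.4%, so in these groups the same library led by both measures.

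Most of the spread within a group lay along 1 axis. The first axis of the centred libraries held 60.4% of the within-group variance in old non-reproducing, 69.5% in old reproducing and 63.0% in young libraries, where an even share over 3 axes is 33.3%. In the old non-reproducing group replicate 1 was at one end (-0.84) with replicates 2, 3 and 4 at 0.35, 0.40 and 0.09. In the old reproducing group replicate 4 (0.84) stood against replicates 1, 2 and 3 at -0.13, -0.49 and -0.22. In the young group replicate 1 (-0.80) stood against replicate 4 (0.56), with replicates 2 and 3 between them at 0.20 and 0.04.

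With all 12 libraries and the limit of 5 CPM, the genes that lay along these axes were in part the same in all groups. No library is shared between the groups. The correlation of gene loadings on the first axes was 0.62 between old non-reproducing and old reproducing, 0.46 between old non-reproducing and young, and 0.42 between old reproducing and young (Pearson, 6499 genes, with signs set so that it is positive). The values rested on single libraries. The first fell to 0.25 without old non-reproducing replicate 1, the second to 0.01 without young replicate 1, and the third to 0.23 without old reproducing replicate 2.

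The same was seen library by library. Across genes, the deviations of old non-reproducing replicate 1 from its group correlated with those of old reproducing replicate 2 (r = 0.57), and with those of old reproducing replicate 4 at r = -0.59. The deviations of old non-reproducing replicate 2 correlated at 0.64 with young replicate 4 and at 0.46 with old reproducing replicate 4. Those of old reproducing replicate 2 and young replicate 1 correlated at 0.59, while old reproducing replicate 2 and young replicate 4 were opposed (r = -0.63). These are descriptions across genes, which are not replicates, and the libraries of 1 group have deviations that sum to 0.

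**Figure D4:**
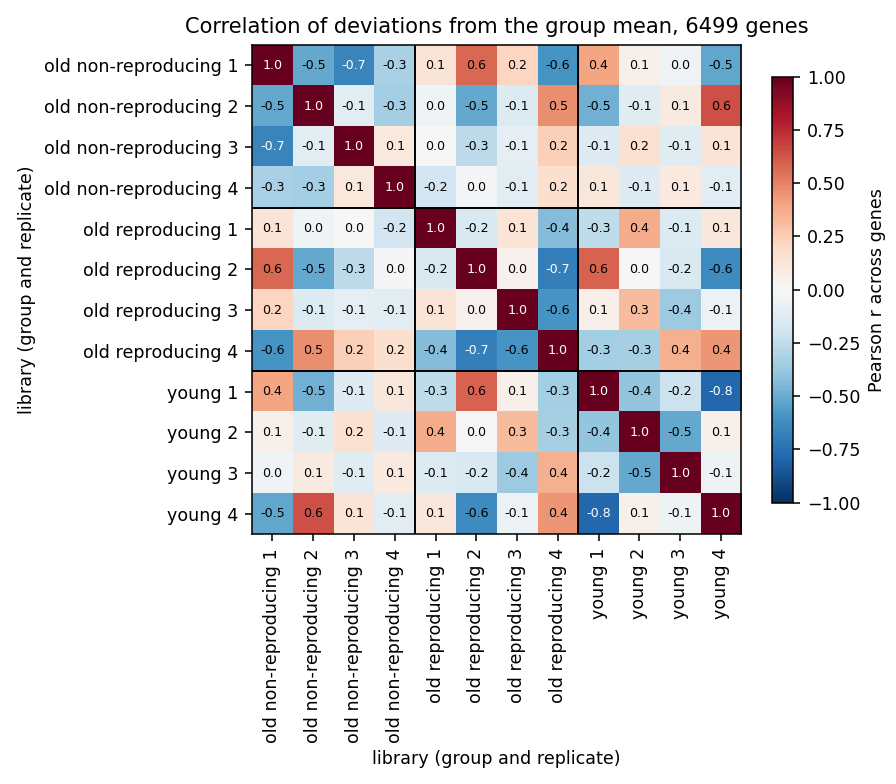
Pearson correlation across 6499 genes of the deviations of 12 libraries from their own group mean (colour and number), libraries by group and replicate on both axes, with black lines between groups. Old non-reproducing 1, old reproducing 2 and young 1 correlate positively across groups, as do old non-reproducing 2, old reproducing 4 and young 4 (0.64 between old non-reproducing 2 and young 4).

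The SDs of genes were related between the groups. Spearman's rho of the SDs across genes was 0.60 between old non-reproducing and old reproducing, 0.63 between old non-reproducing and young, and 0.55 between old reproducing and young. The widest 10% of genes in each group were 650 genes, which began at an SD of 1.11 in old non-reproducing, 0.70 in old reproducing and 1.13 in young libraries. Of these, old non-reproducing and old reproducing shared 387 (59.5%), old non-reproducing and young shared 337 (51.8%), and old reproducing and young shared 413 (63.5%), where each set holds 10% of all genes.

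In total 1060 genes were among the widest 10% of some group and 247 were among those of all 3 groups, or 38.0% of each set. Some genes were among the widest 10% of a single group and below the median SD in both others. There were 6 of 650 (0.923%) for the old non-reproducing group, 1 (0.154%) for the old reproducing group and 2 (0.308%) for the young group. Over all 6499 genes the share below the median in both other groups was 35.3%, 37.3% and 36.04% in the same order of groups.

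The gene with the largest SD in old non-reproducing libraries, 5.59 log2 units, was among the 10 widest in all 3 groups. It had 3250, 0.80, 1.60 and 143 CPM in old non-reproducing replicates 1 to 4. Old reproducing replicates had 58.5, 1545, 96.0 and 2.60 CPM, and young replicates had 3654, 479, 78.05 and 3.56 CPM. Very high levels and levels of a few CPM thus occurred in every group, and its SD was 3.75 in old reproducing and 4.23 in young libraries.

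In all, 6 of the 10 widest genes of the old non-reproducing group followed that pattern, highest in replicate 1, lower in replicate 4 and lowest in replicates 2 and 3. The widest after it did not. It was at 155 CPM in old non-reproducing replicate 3 and 99.5 CPM in replicate 4, with no read in replicate 1 and 0.80 CPM in replicate 2, and at no more than 0.17 CPM in any other library. Another had 12.4, 231 and 157 CPM in replicates 2, 3 and 4, with no read in replicate 1 and at most 0.040 CPM in old reproducing and 0.145 CPM in young libraries. For these genes the spread is that between detection in some old non-reproducing libraries and near absence in all others.

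The 10 widest genes of the old reproducing group were of 2 kinds. There were 7 with their highest level in replicate 4, and of these 6 were also at least 3 times as high in each of old non-reproducing replicates 2 to 4 as in replicate 1. One of them had 83.8 CPM in old reproducing replicate 4 against 0.079 to 2.76 CPM in replicates 1 to 3, and 533 to 1153 CPM in old non-reproducing replicates 2 to 4 against 3.92 CPM in replicate 1. The other 3 were lowest in replicate 4.

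In the young group 7 of the 10 widest genes were high in replicate 1 alone. The widest had an SD of 4.99, with 379 CPM in young replicate 1 and 1.19, 0.183 and 0.145 CPM in replicates 2 to 4. It had 1.43 to 15.1 CPM in old non-reproducing and 1.02 to 7.77 CPM in old reproducing libraries, where the highest were old non-reproducing replicate 1 and old reproducing replicate 2.

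The pattern of the largest gap was then read for all 650 widest genes of each group, as the libraries that lay above it. In the old non-reproducing group replicates 2, 3 and 4 were high together for 187 genes (28.8%), replicates 1, 3 and 4 for 128 (19.7%) and replicate 1 alone for 124 (19.1%). In the old reproducing group replicates 1, 2 and 3 were high for 257 genes (39.5%), replicate 4 alone for 126 (19.4%) and replicate 2 alone for 63 (9.69%). In the young group replicates 2 and 4 were high for 150 genes (23.1%), replicate 1 alone for 140 (21.5%) and replicates 2, 3 and 4 for 107 (16.5%).

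A single library against the other 3 was the common form. Among 4 ordered values only the middle gap gives a split of 2 against 2, so the common form was favoured beforehand. The share over all genes was not taken. A split of 2 against 2 was found for 118 of 650 genes (18.2%) in old non-reproducing, 103 (15.8%) in old reproducing and 174 (26.8%) in young libraries. Old reproducing replicate 4 lay alone on one side, high or low, for 383 of the 650 genes of its group. Over all genes this replicate was the farthest from its group mean for 50.1%, by a related but different measure. The count is thus not a trait shown to be particular to the widest genes.

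The sets defined in one group had levels in the other groups that the pattern did not use. The 187 genes low in old non-reproducing replicate 1 were chosen for that pattern. In the groups that did not choose them they deviated by a median of 1.12 in old reproducing replicate 4, -0.80 in old reproducing replicate 2 and 0.73 log2 units in young replicate 4. The mean was at least 5 CPM for all 187 in old non-reproducing, for 99 in old reproducing and for 87 in young libraries, so many of them passed the limit on abundance through the group that chose them. Their median level was 2.81 CPM in old non-reproducing replicate 1 and 72.3 to 108 CPM in replicates 2 to 4, against 2.02 to 10.7 CPM in old reproducing and 1.22 to 6.21 CPM in young libraries.

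The 126 genes high in old reproducing replicate 4 alone showed the same libraries from the other side. Their median level was 3.34, 70.8, 50.1 and 64.9 CPM in old non-reproducing replicates 1 to 4. It was 3.73, 1.90, 3.19 and 25.8 CPM in old reproducing replicates 1 to 4, and 1.49, 2.28, 2.63 and 7.5001 CPM in young replicates 1 to 4. Old non-reproducing replicate 1 thus stood at the level of the old reproducing replicates 1 to 3 for these genes, and young replicate 4 was the highest of its group. The mean was at least 5 CPM for 120 of these genes in old non-reproducing, 85 in old reproducing and 60 in young libraries.

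The 140 genes high in young replicate 1 alone had a median of 126 CPM there and 4.78 to 9.24 CPM in the other young libraries. Across the old libraries the highest medians for this set were 32.8 CPM in old non-reproducing replicate 1 and 24.4 CPM in old reproducing replicate 2. The other old libraries lay between 6.39 and 16.6 CPM.

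**Figure D5:**
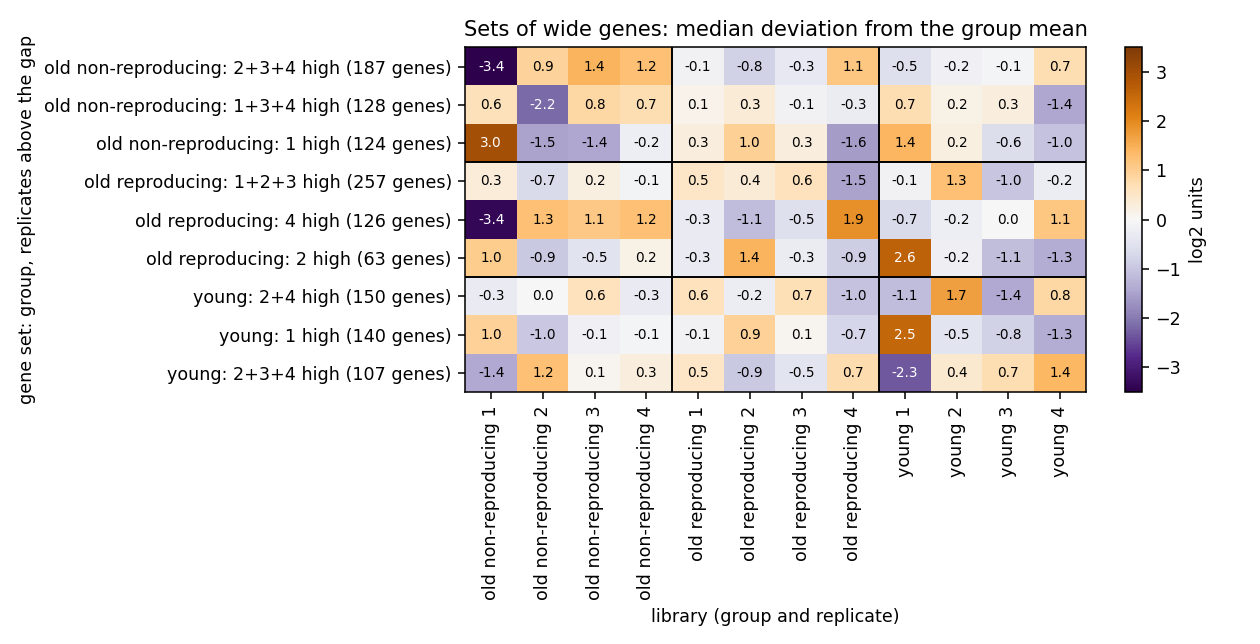
Median deviation from the group mean in log2 units (colour and number) in each of 12 libraries (horizontal) for 9 sets of genes (vertical), the 3 commonest patterns of the largest gap among the 650 widest genes of each group. The 126 genes high in old reproducing replicate 4 are lower in old non-reproducing replicate 1 than in replicates 2 to 4 of that group, and the 140 genes high in young replicate 1 are highest in replicate 1 of the old non-reproducing group and in old reproducing replicate 2.

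The widest genes were somewhat shorter than the rest but of similar abundance or less. The median gene model length recovered from the deposited tables was 2091 nucleotides in the widest 10% of old non-reproducing, 1996 of old reproducing and 2138 of young libraries, against 2622 over the 6498 genes with a length. Their median level was 35.0 CPM in the old non-reproducing, 20.2 CPM in the old reproducing and 20.2 CPM in the young set, against 37.0 CPM over all genes. The share of models with an ID that begins with maker was 75.4%, 76.5% and 76.2% in these sets in the same order of groups, and 76.4% over all genes.

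Wide genes were unevenly placed over the contigs named in the IDs. Among the 32 contigs with at least 50 of the genes, the share in the widest 10% ranged from 1.69% to 38.5% in old non-reproducing, from 2.00% to 38.5% in old reproducing and from 1.69% to 39.7% in young libraries. The highest share was that of contig 000036F, singled out here after its values were seen, with 30 of its 78 genes in the old non-reproducing, 30 in the old reproducing and 31 in the young set. Contig 000018F followed, with 51, 47 and 42 of its 223 genes in the old non-reproducing, old reproducing and young sets.

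Of the 78 genes of contig 000036F, 36 were among the widest 10% of some group and 21 of all 3 groups. Those 21 had median levels of 33.7, 6.80, 12.4 and 24.5 CPM in old non-reproducing replicates 1 to 4. In old reproducing replicates 1 to 4 the medians were 23.98, 30.3, 26.1 and 12.6 CPM, and in young replicates 27.3, 23.3, 9.83 and 13.3 CPM. By these medians the lowest libraries were old non-reproducing replicate 2, old reproducing replicate 4 and young replicate 3, and the highest were old non-reproducing replicate 1, old reproducing replicate 2 and young replicate 1. By the median deviation from the group mean the lowest young library was replicate 4, at -0.83 log2 units against -0.46 in replicate 3. Neighbouring gene models can share sequence, and whether the counting split reads between similar copies was not tested.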

How the data were processed

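Per the file headers, the deposited tables hold the authors' raw counts of reads and their RPKM values. The deposited RPKM values served here only to recover gene lengths. STAR and SAMtools are named in the submitters' processing notes. Their versions, the counting program, its use of strand and the genome build are not given in the sources used here. Each library was assigned from its title, and 0 columns were left without a sample.

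Counts were scaled with TMM factors (edgeR 4.0.16) and turned into log2 CPM with a prior count of 2. Single genes were tested with limma 3.58.1 (R 4.3.3) on absolute deviations from the group mean, each times the square root of n/(n - 1) for n libraries, with 1 mean per group, a variance trend and a within-group correlation of deviations of 0.0983, which is the value 4 normal observations give. The trend and the correlation were added to the planned fit after a test on simulated data, and limma with default settings is an alternative. One value per library was compared by exact permutation. DESeq2 1.42.0 and the edgeR dispersion ratio were alternatives.

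Named genes are the 2 with the smallest p in each direction of each comparison among genes averaging at least 10 CPM, whether called or not. The genes, limits and tests were chosen with earlier results of these data known. No gene ID matched the RefSeq table (0 of 6499), so no sequence or function is given. The SD that read numbers alone would give covers counting error only.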

Additional observations from a re-analysis of the deposited data

Results flagged for a closer look

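Values of the named genes and of the library measures were examined in 45 groups of 4 libraries for a library far from the other 3. In 5 of them the gap passed the 95% limit. About 1 in 20 groups, or 2.25, would do so by chance if none had been chosen by its values. The named genes were chosen for a wide or narrow spread in these libraries, so this rate does not hold for them.

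In 2 of the 5 groups the gene had been named for its wide spread there. maker-000014F-snap-gene-11.57 had 649 CPM in old non-reproducing replicate 2, against 17.6 to 27.9 CPM in the other libraries of that group. maker-000001F-snap-gene-21.30 had 3.96 CPM in old reproducing replicate 4, against 31.6 to 47.8 CPM in the other 3.

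The remaining values were in groups where the gene was otherwise tight. maker-000001F-augustus-gene-4.40 had 35.8 CPM in young replicate 3, against 32.3 to 32.7 CPM in the other young libraries. snap_masked-000105F-processed-gene-0.16 had 30.9 CPM in old non-reproducing replicate 2, against 19.4 to 20.3 CPM in the other 3, and 20.5 CPM in old reproducing replicate 4, against 23.1 to 23.3 CPM in the other 3. Old reproducing was the narrow group in the comparison that named this gene.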

How the results depend on the processing

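The count of genes called was 0 for old non-reproducing against old reproducing and 0 for old non-reproducing against young under library totals, upper-quartile factors, DESeq2 size factors, a filter at 1 CPM, deviations from the group median, squared deviations, the edgeR dispersion ratio, DESeq2 variance-stabilised values, fits to 8 libraries and an adjusted p of 0.01. At an adjusted p of 0.10 they were 4 and 5. Thinned to the smallest library, old non-reproducing against young had 0. With limma defaults, the planned settings before trend and correlation were added and run as an alternative after seeing the data, the 3 comparisons had 11, 46 and 4 calls, none shared with the calls reported. With no filter on low counts they had 2423, 2445 and 2229 calls over 21456 genes, of which 2367, 2316 and 2176 averaged under 1 CPM. Genes averaging at least 5 CPM made up 44, 63 and 17 of these calls, against 1, 1 and 0 in the main fit. The calls among the genes reported here thus depended on the filter as well. Without 1 library the counts were 0 to 16, 0 to 17 (both highest without old non-reproducing replicate 4) and 0 to 0.

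Of 12 libraries, 1 correlated best with its own replicate number. Correlations between libraries of the same number ran from -0.51 to 0.44. Whether the numbers pair the libraries cannot be told from this. With the replicate block, old non-reproducing against young had 0 calls and old non-reproducing against old reproducing 1.

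The difference in library deviation between old non-reproducing and young was -0.004, and 0.032 (exact permutation p = 0.657) under library totals. Without 1 library it was -0.029 to 0.030, against 0.013 to 0.083 for old non-reproducing and old reproducing and -0.087 to -0.010 for old reproducing and young. The median log2 SD ratios were then 0.0671 to 0.81, -0.35 to 0.34 and -0.92 to -0.0186, and upper-quartile factors gave -0.46 for old non-reproducing against young.

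Median SDs in old non-reproducing, old reproducing and young libraries were 0.347, 0.328 and 0.374 with no filter. They were 0.329 in old non-reproducing and 0.353 in young libraries at 1 CPM, 0.334 in old non-reproducing libraries under library totals and 0.375 in young ones under upper-quartile factors. Leaving out 1 library gave 0.223 to 0.283, 0.158 to 0.230 and 0.207 to 0.290. The coefficients of variation were 0.182, 0.145 and 0.177 as medians of DESeq2 gene-wise dispersions, 0.557 in young libraries with no filter, and 0.402 to 0.543, 0.233 to 0.363 and 0.368 to 0.487 without 1 library.

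First axes held 49.8% in old non-reproducing and 54.5% in old reproducing libraries with no filter, and 60.2% to 82.5%, 69.3% to 84.3% and 55.8% to 81.0% without 1 library. Their correlation for old reproducing and young was 0.0591 at 1 CPM, and without 1 library the 3 were 0.25 to 0.66, 0.0111 to 0.54 and 0.23 to 0.61. Shared shares of the widest 10% were 37.3%, 32.6% and 43.1% with no filter, 53.7% for old reproducing and young at 1 CPM and 58.5% where every group averaged 5 CPM, and 41.2% to 62.5%, 41.5% to 54.0% and 56.2% to 64.4% without 1 library. Rank correlations of SDs were 0.495 and 0.510 for the old non-reproducing pairs under library totals and 0.484 and 0.487 with no filter. For old reproducing and young they were 0.397 under upper-quartile factors and 0.636 at 1 CPM. Without 1 library the 3 were 0.492 to 0.620, 0.518 to 0.627 and 0.472 to 0.596. The cause of these shifts was not tested.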
